A study of Homo sapiens with 12 samples.

Results

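The comparison described here is 1 µM dexamethasone (DEX) against no drug in the human breast cancer cell line MDA-MB-231, read over all genes of the deposited count table. Its members are 6 of the 12 RNA-seq libraries of the series, 3 wells with DEX and 3 wells with no drug, taken by their sample titles. Of the 26364 gene rows in the table, 14184 had enough reads to be tested. MDA-MB-231 is an established triple-negative line of mesenchymal character, lacking the estrogen and progesterone receptors. Treatment lasted 24 h in each well, and what the no-drug wells received in its place (a vehicle or nothing) is not stated in the labels used. The other 6 libraries come from wells with 8 µM SH4-54, an inhibitor of STAT3 and STAT5, alone or together with DEX. They entered the model that estimates the spread between wells and serve at the end as a separate set of wells with and without DEX. The labels speak of replicate wells of 1 line, so the p-values measure the spread between wells.

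DEX is a synthetic glucocorticoid. It enters the cell and binds the glucocorticoid receptor, the product of NR3C1, which then moves to the nucleus, binds DNA at palindromic response elements and raises or lowers transcription together with other factors. Its textbook uses are the damping of inflammation and of immune cells. In other tissues the same hormone class governs glucose and lipid metabolism, salt handling and muscle breakdown, and the question asked of these wells was which such functions moved in a tumour line beyond the familiar target genes.

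Counted reads ran from 28439725 to 31552360 per library without drug and from 26040956 to 29426776 with DEX. Levels are given as CPM (read counts scaled to library size), and the median coefficient of variation between wells was 3.33% without drug and 3.43% with DEX for genes of at least 5 CPM. The markers VIM, CD44, ZEB1, FN1, AXL and MSN of a mesenchymal line summed to between 3530 and 3619 CPM without drug and between 2920 and 3076 CPM with DEX, and all 6 were detected in every well. Within this sum FN1 went up, from between 158.1 and 186.2 CPM to between 547.4 and 580.7 CPM. The other markers of the set lay lower with DEX. The luminal markers CDH1, EPCAM, ESR1, PGR, FOXA1 and GATA3 summed to between 35.0 and 37.0 CPM and between 38.3 and 39.6 CPM, and ESR1 had 4 reads in each group. The summed blood, endothelial and adipocyte markers stayed at or below 1.11 CPM in every well, with HBB and LEP at 0. The fibroblast markers COL1A1, COL1A2, PDGFRB and LUM summed to between 11.8 and 13.6 CPM without drug and between 12.03 and 13.6 CPM with DEX, and most of that sum was PDGFRB. In bulk RNA of this kind, fewer cells of a given state and less RNA per cell cannot be told apart.

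DEX changed 3104 genes upward and 3293 downward (edgeR quasi-likelihood test, Benjamini-Hochberg adjusted p below 0.05 over all tested genes), which is 21.9% and 23.2% of the genes tested. Most changes were small, with a median absolute log2 fold change of 0.30 among the genes that passed. At least 2-fold rises numbered 298 (2.10% of the genes tested) and at least 2-fold falls 385 (2.71%). At the far end the rises outnumbered the falls, with 100 against 70 genes past 4-fold and 39 against 19 past 8-fold. The call depends on how well a gene is counted: under 1 CPM (log2 below 0) 7.31% of genes rose and 12.9% fell, and above a log2 CPM of 8 the shares were 30.9% and 29.1%. The receptor gene NR3C1 stood at 499.9, 488 and 493 CPM in the no-drug wells and 278, 272 and 276 CPM in the DEX wells, a log2 fold change of -0.84 ± 0.028 (± standard error, here and for every log2 fold change, adjusted p = 8.98e-12). Among 24 tested classical glucocorticoid targets 21 rose and 1 (CRISPLD2, named after its value was seen) fell, with a median log2 fold change of 1.59 against -0.01 over all tested genes. That list is a check of the treatment and was chosen for its known direction.

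**Figure D1:**
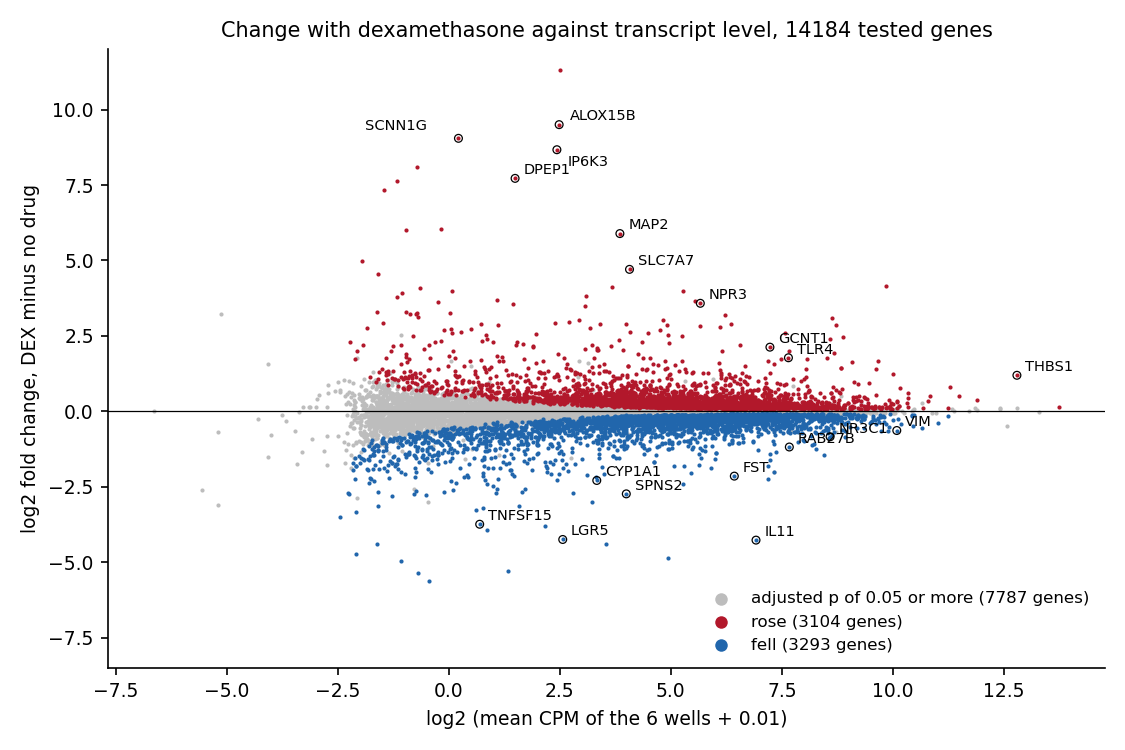
Log2 fold change of DEX against no drug (vertical axis) plotted against the log2 of the mean CPM over the 6 wells plus 0.01 (horizontal axis), 1 point per tested gene, with 3104 risen genes in red, 3293 fallen genes in blue and the others in grey. Circled genes are named in the text. The largest rises start from genes near 0 counts. Values fitted for genes at 0 in a group, such as SCNN1G, depend on the model and are no bound. The unlabelled red point at the top is RNA5-8S5, a ribosomal RNA gene listed at 22.1, 0 and 11.8 CPM in the DEX wells and 0 in all no-drug wells, whose groups overlap.

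**Figure D2:**
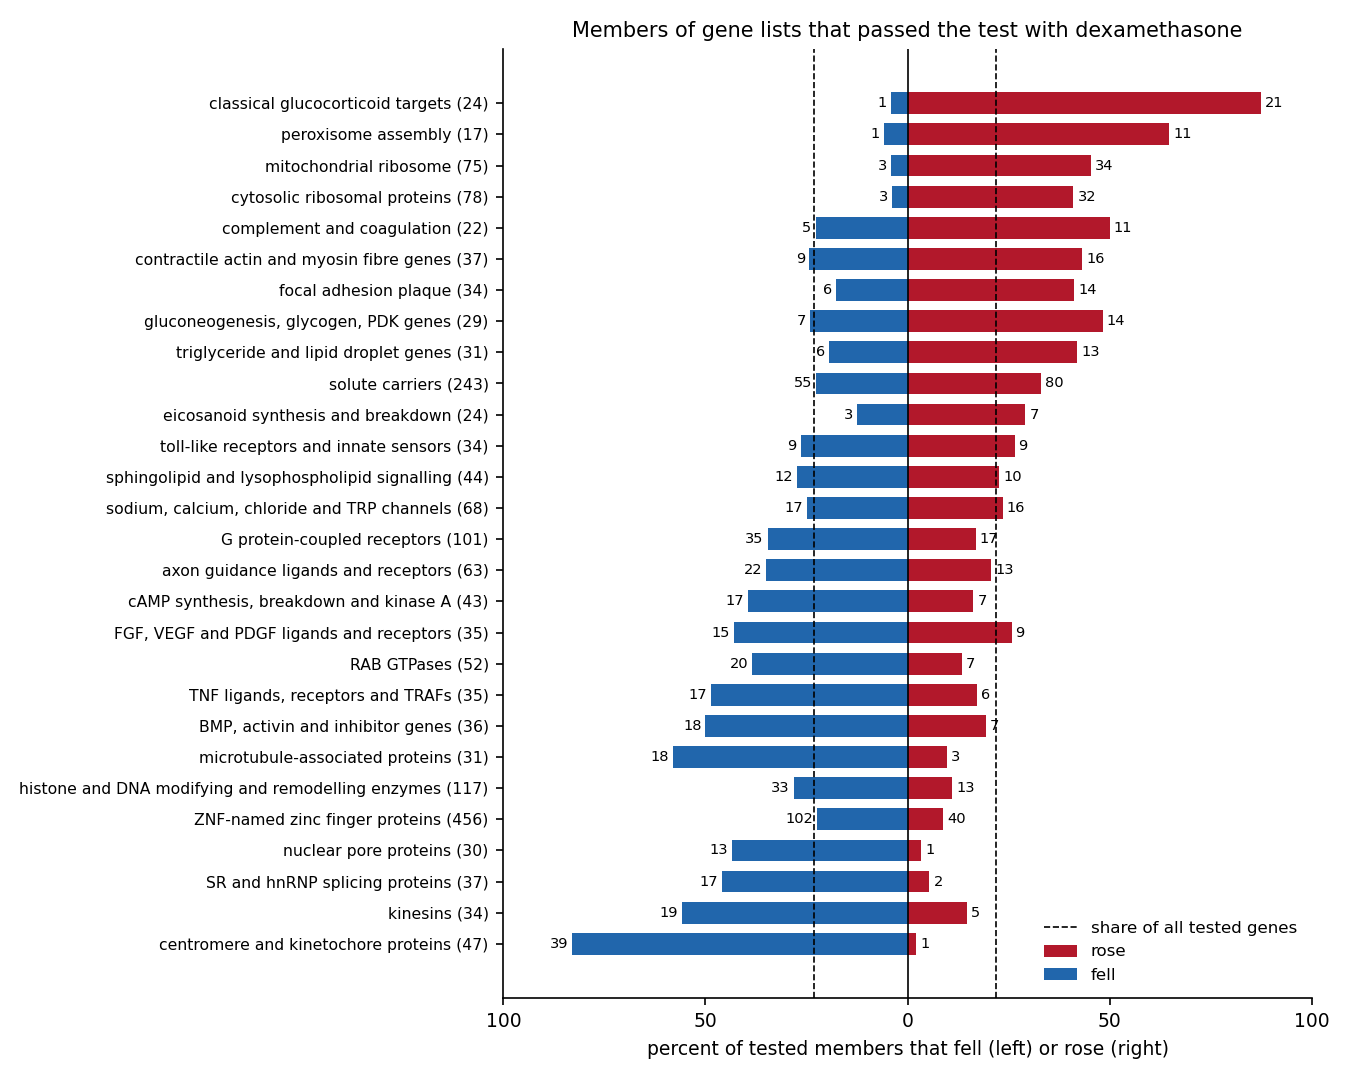
Percent of the tested members of 28 gene lists that rose (red, right) or fell (blue, left) with DEX, with the number of members at each bar and the number tested in brackets. The 28 were chosen by hand from the 68 lists. Some lists not drawn lay close to the dashed lines, such as vacuolar ATPase and F-box genes. Dashed lines mark the shares over all tested genes, 21.9% higher and 23.2% lower. Peroxisome and ribosome genes reach past the right line and stay short of the left one, and centromere, kinesin, splicing and nuclear pore genes do the reverse.

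Several of the largest rises with DEX were in genes of the eicosanoid list, which covers enzymes that make or break down prostaglandins and leukotrienes. ALOX15B encodes a 15-lipoxygenase that oxygenates arachidonic acid. It had 1 read in the 3 no-drug wells together and 911 in the DEX wells, where it reached 12.5, 11.4 and 9.53 CPM. The ratio of these counts, scaled to depth, was 1011 with a 95% interval from 181.1 to 39990 that covers counting error only. DPEP1, a membrane dipeptidase that converts leukotriene D4 to leukotriene E4, went from 2 to 454 reads, a ratio of 252.0 (69.4 to 2087). No no-drug well came near a DEX well for either gene, and groups did not overlap for 56.1% of all tested genes. Most genes named here were taken by a rule that asks for no overlap, so where it is mentioned it describes the wells and supports nothing. GGT5, the glutamyl transferase one step earlier in that conversion, was at 9.33, 8.45 and 7.98 CPM without drug and 25.8, 23.8 and 23.5 CPM with DEX, a log2 fold change of 1.501 ± 0.077 (adjusted p = 7.47e-10). ALOX5AP, the protein that presents arachidonate to 5-lipoxygenase, rose from 0.109 ± 0.0452 to 1.09 ± 0.131 CPM (mean ± SD, n = 3 wells here and below).

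HPGD and SLCO2A1, which remove prostaglandins, rose as well. HPGD, the dehydrogenase that inactivates prostaglandin E2, stood at 11.7, 10.1 and 9.77 CPM without drug and 33.2, 36.9 and 37.3 CPM with DEX, and its log2 fold change was 1.76 ± 0.24 (adjusted p = 2.25e-05). SLCO2A1, the transporter that takes prostaglandins up into cells, rose from 0.111 ± 0.0199 to 1.07 ± 0.115 CPM. The DEX wells lay above all no-drug wells for both genes. The synthetic enzyme genes PTGS2 and PTGES did not pass the test. PTGS2 (cyclooxygenase-2), a gene glucocorticoids are known to repress, had a log2 fold change of 0.40 ± 0.18 (adjusted p = 0.0899) and PTGES one of 0.10 ± 0.044 (adjusted p = 0.0777). Both were chosen after their values were seen. Over the whole list of eicosanoid synthesis and breakdown, 7 of 24 tested members rose (29.2%) and 3 fell (12.5%), with a median log2 fold change of 0.08. The shares over all tested genes were 21.9% and 23.2%. Of the rises 5 were by 2-fold or more.

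Single genes of sphingosine-1-phosphate, a lipid signal that guides cell migration, changed in a list that as a whole lay close to the shares over all genes. Of 44 tested genes of sphingolipid and lysophospholipid signalling 10 rose (22.7%) and 12 fell (27.3%), against 21.9% and 23.2% of all tested genes. SPNS2, its exporter, was at 28.3, 27.7 and 27.3 CPM without drug and 4.22, 4.21 and 4.07 CPM with DEX, a log2 fold change of -2.73 ± 0.11 (adjusted p = 4.96e-11). SPHK1, the kinase that makes it, fell from 14.8 ± 0.537 to 7.19 ± 0.571 CPM, and SPTLC3, a subunit of the enzyme that starts sphingolipid synthesis, from 30.7 ± 0.651 to 15.7 ± 0.516 CPM. SGPP2, a phosphatase that removes its phosphate, rose from 2.003, 1.29 and 1.12 CPM in the no-drug wells to 11.9, 10.9 and 12.02 CPM in the DEX wells (2.96 ± 0.18, adjusted p = 4.60e-09).

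**Figure D3:**
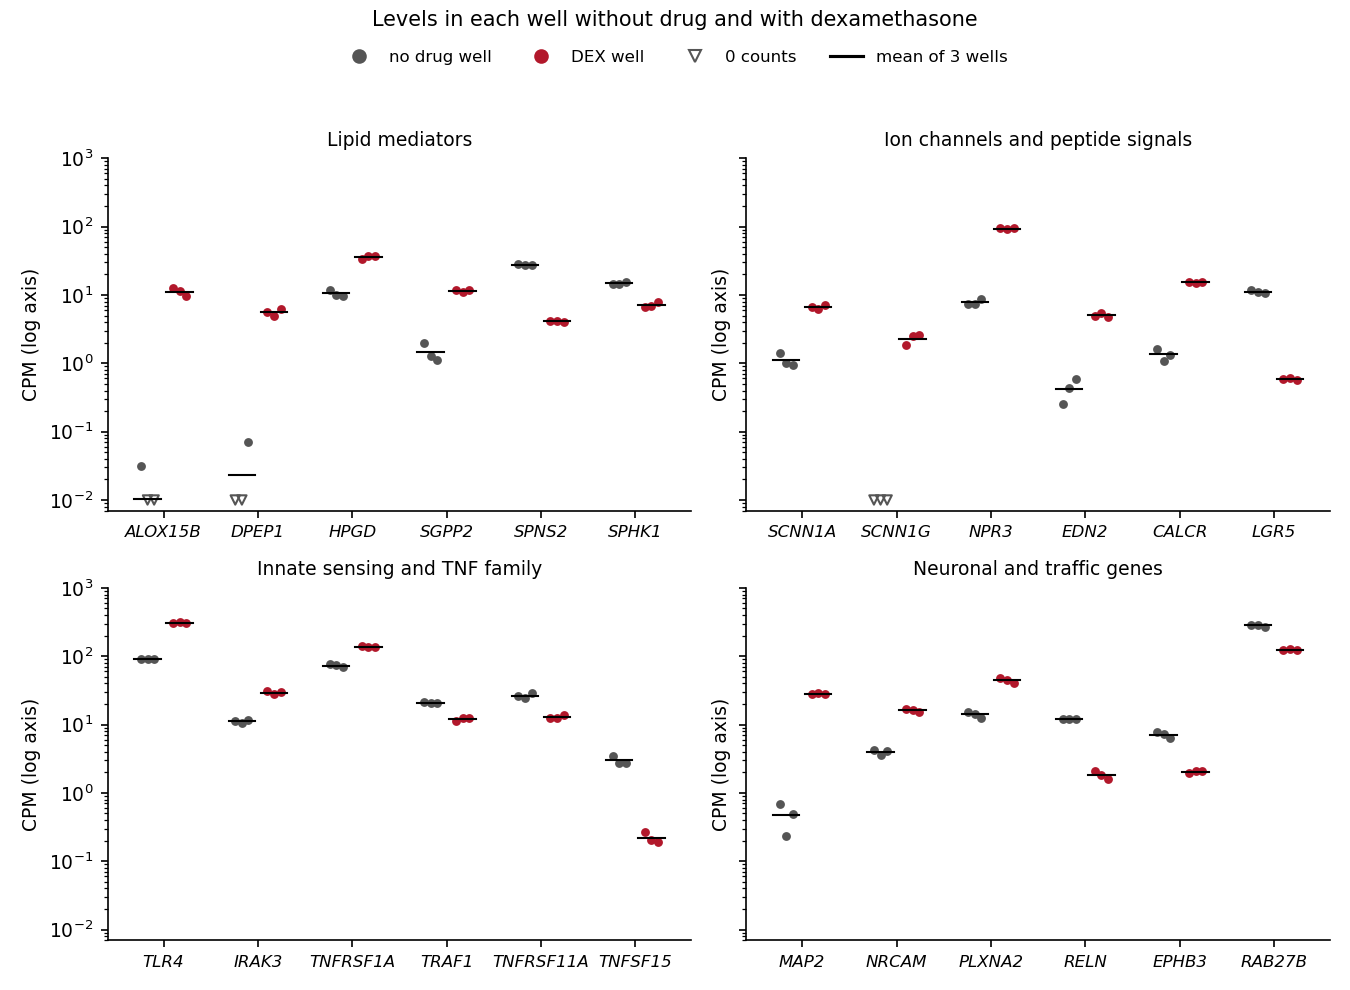
CPM on a log axis in each well for 24 genes in 4 groups, no-drug wells in grey and DEX wells in red, with the mean of 3 wells as a line and open triangles for wells with 0 counts, drawn at 0.01. The wells of each group lie close together next to the shift between groups, and the 3 no-drug wells of SCNN1G are all at 0.

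IP6K3, a kinase that makes inositol pyrophosphates, was the second largest rise among genes of at least 5 CPM. It had 2 reads in the no-drug wells and 878 in the DEX wells, where it stood at 11.3, 10.6 and 10.4 CPM, a count ratio of 487.4 (95% interval 134.5 to 4031). PLCB4, a phospholipase C, rose from 66.8 ± 3.36 to 149 ± 5.46 CPM, while PLCH1 of the same family fell from 13.2 ± 0.428 to 7.43 ± 0.187 CPM. In the list of inositol polyphosphate and phospholipase C genes 8 of 34 tested members rose (23.5%) and 12 fell (35.3%). Of all tested genes 21.9% rose and 23.2% fell, so the share that rose was near that of all genes. The median log2 fold change of the list was -0.09.

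The core promoters of the responding genes were searched for the binding sequence of the receptor. RefSeq promoters (GRCh38.p14, 250 bases before to 50 after the start) were at hand for 202 of the genes that rose at least 2-fold and 255 of those that fell at least 2-fold. The full palindrome, AGAACA and TGTTCT parted by 3 free bases, read on both strands, was in none of them, in 0 of 10308 promoters of tested genes and in 1 of all 27305 promoters. A looser form (AGAACA, 3 free bases, TGT, a free base, C and a last free base), of which the palindrome is a special case, was in 0 of 202, 1 of 255, 3 of 10308 and 29 of 27305. The hexamer AGAACA on either strand, which both longer forms contain, was in 30 of 202 promoters of risen genes (14.85%), 27 of 255 of fallen genes (10.59%) and 898 of 10308 of all tested genes (8.71%). Over all promoters of the table the share was 14.85%, the same as among risen genes. Among the 20 largest rises, 15 had a promoter in the table and 2 of these held the hexamer. Both are shown because they belong to lipid and inositol genes described here, with the hexamer in capitals, first IP6K3 on the minus strand at chr6:33746978-33747037 and then SGPP2 on the plus strand at chr2:222423797-222423856.
IP6K3: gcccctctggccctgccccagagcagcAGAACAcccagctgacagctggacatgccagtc
SGPP2: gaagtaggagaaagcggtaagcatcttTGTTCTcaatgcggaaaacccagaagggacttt
In IP6K3 the hexamer begins 105 bases and in SGPP2 164 bases before the annotated start. A match of 6 letters is a description of the sequence, and binding was not measured.

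SCNN1G and SCNN1A, subunits of the epithelial sodium channel, rose with DEX. It is a classical steroid-regulated channel of the kidney and colon. SCNN1G, the gamma subunit, had 0 reads in the 3 no-drug wells and 1.86, 2.50 and 2.56 CPM in the DEX wells, at least 69.9-fold higher when 3 reads over the group are taken as the floor. The alpha subunit gene SCNN1A stood at 1.41, 0.994 and 0.949 CPM without drug and 6.77, 6.17 and 7.08 CPM with DEX (2.56 ± 0.17, adjusted p = 1.09e-08). Every DEX well lay above every no-drug well for both subunits. The calcium channel genes TRPV2 and CACNA1H fell with log2 fold changes of -1.74 ± 0.24 and -1.45 ± 0.29. Of 68 tested sodium, calcium, chloride and TRP channel genes 16 rose (23.5%) and 17 fell (25.0%), close to the 21.9% and 23.2% of all tested genes.

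NPR3, the clearance receptor for natriuretic peptides, was at 7.36, 7.49 and 8.65 CPM without drug and 93.98, 92.4 and 94.3 CPM with DEX, a log2 fold change of 3.58 ± 0.17 (adjusted p = 4.62e-10). EDN2, which encodes the vasoconstrictor endothelin-2, rose from 0.250, 0.431 and 0.598 CPM to 4.91, 5.38 and 4.82 CPM (3.57 ± 0.20). CALCR, the calcitonin receptor, rose from 1.63, 1.09 and 1.34 CPM to 15.7, 14.7 and 15.6 CPM (3.49 ± 0.10, adjusted p = 3.06e-12). For these 3 genes every DEX well lay far above the highest no-drug well. Further receptors rose from low levels: the adrenergic receptor ADRA1B by 2.29 ± 0.16, the cannabinoid receptor CNR1 by 2.19 ± 0.20 and the latrophilin ADGRL3 by 2.39 ± 0.19 on the log2 scale. The list of G protein-coupled receptors, which leaves out CALCR, leaned the other way. Of its 101 tested members 17 rose (16.8%) and 35 fell (34.7%), against 21.9% and 23.2% of all tested genes. The median log2 fold change was -0.11, and the adhesion receptor ADGRF1 (-2.05 ± 0.27) was among those that fell. LGR5, the R-spondin receptor known as a stem-cell marker, was the largest fall of the list (11.9, 11.2 and 10.7 CPM to 0.580, 0.617 and 0.565 CPM).

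Solute carriers were the larger transport class, with a median log2 fold change of 0.04. Of 243 tested members 80 rose (32.9%) and 55 fell (22.6%), against 21.9% and 23.2% of all tested genes. SLC7A7, a light chain for the export of cationic amino acids, stood at 1.63, 0.796 and 1.27 CPM without drug and 32.2, 32.5 and 32.3 CPM with DEX, a log2 fold change of 4.71 ± 0.23 (adjusted p = 4.57e-10). SLC26A2, the sulfate transporter that feeds proteoglycan sulfation, rose from 81.6 ± 4.96 to 324 ± 9.45 CPM. Both genes were far outside the spread of the wells. Of 31 ABC transporters 13 rose (41.9%) and 6 fell (19.4%), and 3 fell by the DESeq2 test. The drug exporters moved apart: ABCC3 and ABCC4 rose by 0.90 ± 0.12 and 0.57 ± 0.048 on the log2 scale, and ABCG2, the breast cancer resistance protein gene, fell from 39.5, 39.4 and 38.9 CPM to 18.8, 19.1 and 18.6 CPM (-1.06 ± 0.046, adjusted p = 1.43e-10). The glycerol channel gene AQP3 fell from 20.7 ± 3.14 to 9.83 ± 0.831 CPM.

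Sensors of bacterial products changed member by member. TLR4, the lipopolysaccharide receptor, was at 90.4, 91.2 and 90.6 CPM in the no-drug wells and 311, 318 and 303 CPM in the DEX wells, a log2 fold change of 1.78 ± 0.069 (adjusted p = 4.77e-11). Its co-receptor gene LY96 went the other way at a low level, from 1.25, 0.895 and 1.27 CPM to 0.503, 0.206 and 0.565 CPM (-1.43 ± 0.32, adjusted p = 0.00175). The wells with and without DEX did not overlap for either gene. IRAK3, an inhibitor of Toll-like receptor signalling, rose from 11.2 ± 0.520 to 29.4 ± 1.14 CPM, and CASP1, the inflammasome protease, from 0.922 ± 0.134 to 3.27 ± 0.611 CPM. The flagellin receptor gene TLR5 fell (-1.27 ± 0.22). Of the 34 tested sensors 9 rose and 9 fell, each 26.5%, close to the shares over all genes.

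The tumour necrosis factor family fell more than it rose, with a median log2 fold change of -0.19. Of 35 tested ligands, receptors and TRAF adaptors 17 fell (48.6%) and 6 rose (17.1%), against 23.2% and 21.9% of all tested genes. TNFSF15, a ligand that acts on T cells and endothelium, dropped from 3.51, 2.75 and 2.74 CPM to 0.271, 0.206 and 0.188 CPM (-3.74 ± 0.24, adjusted p = 8.38e-09). TNFRSF11A (RANK, the receptor for the osteoclast factor RANKL) fell from 26.3, 24.6 and 28.8 CPM to 12.5, 12.6 and 13.6 CPM (-1.04 ± 0.086). In both genes all DEX wells were below all no-drug wells. TNFRSF19 and the adaptor TRAF1 fell by 1.04 and 0.81 on the log2 scale. The main TNF receptor gene TNFRSF1A rose from 76.2, 74.3 and 68.7 CPM to 139, 138 and 135 CPM (0.91 ± 0.057, adjusted p = 7.43e-09).

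Changed genes lay side by side at 3 places, taken as at least 3 tested genes in a row on the RefSeq map (used for gene order only) that passed the test in 1 direction and changed at least 2-fold. The longest was on chromosome 4, where RASSF6 and the CXC chemokine genes CXCL8, CXCL1, PF4, CXCL3 and CXCL2 all rose. CXCL8, CXCL1, CXCL3 and CXCL2 encode chemokines that draw neutrophils and are textbook targets of glucocorticoid repression. CXCL8 was at 9.26, 8.25 and 8.15 CPM without drug and 18.5, 18.4 and 18.9 CPM with DEX (1.12 ± 0.097, adjusted p = 2.30e-07). CXCL3 rose from 1.16, 0.895 and 1.34 CPM to 4.64, 5.72 and 5.43 CPM and PF4 from 0.120 ± 0.0620 to 1.56 ± 0.349 CPM. The 6 genes had log2 fold changes between 1.12 (CXCL8) and 3.64 (PF4), and no DEX well overlapped a no-drug well in any of them. The run stopped at MTHFD2L (-0.02 ± 0.099, adjusted p = 0.875). Beyond it the neighbouring growth factor genes parted, with AREG up by 2.75 ± 0.13 and EREG down by 0.23 on the log2 scale. The flanking genes were chosen by position, and AREG and EREG lie outside the rule for named genes.

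On chromosome 20 the secreted cystatin genes CST4, CST1 and CST2, inhibitors of cysteine proteases, fell together. CST1 was at 2.41, 1.76 and 1.97 CPM without drug and 0.464, 0.445 and 0.452 CPM with DEX (-2.16 ± 0.26, adjusted p = 8.07e-06), CST4 had a log2 fold change of -1.88 ± 0.22 and CST2 one of -2.30 ± 0.29. These 3 genes are close copies of one another and the labels do not say how reads that map to several places were counted, so their separate values are uncertain. The neighbour CST3, which encodes the ubiquitous cystatin C, rose from 119.6 ± 5.19 to 157 ± 7.06 CPM, and CST7 on the other side fell by 0.89 on the log2 scale. On chromosome 17 the run held ALOX15B, HES7 and the clock gene PER1. PER1 rose from 1.38, 1.13 and 1.09 CPM to 9.98, 8.70 and 9.08 CPM, and HES7 stayed low, at 0.212 ± 0.0482 and 0.544 ± 0.134 CPM. Between ALOX15B and HES7 lie ALOX12B and ALOXE3, 2 further lipoxygenase genes, which had 19 or fewer reads over the 6 wells and were not tested.

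**Figure D4:**
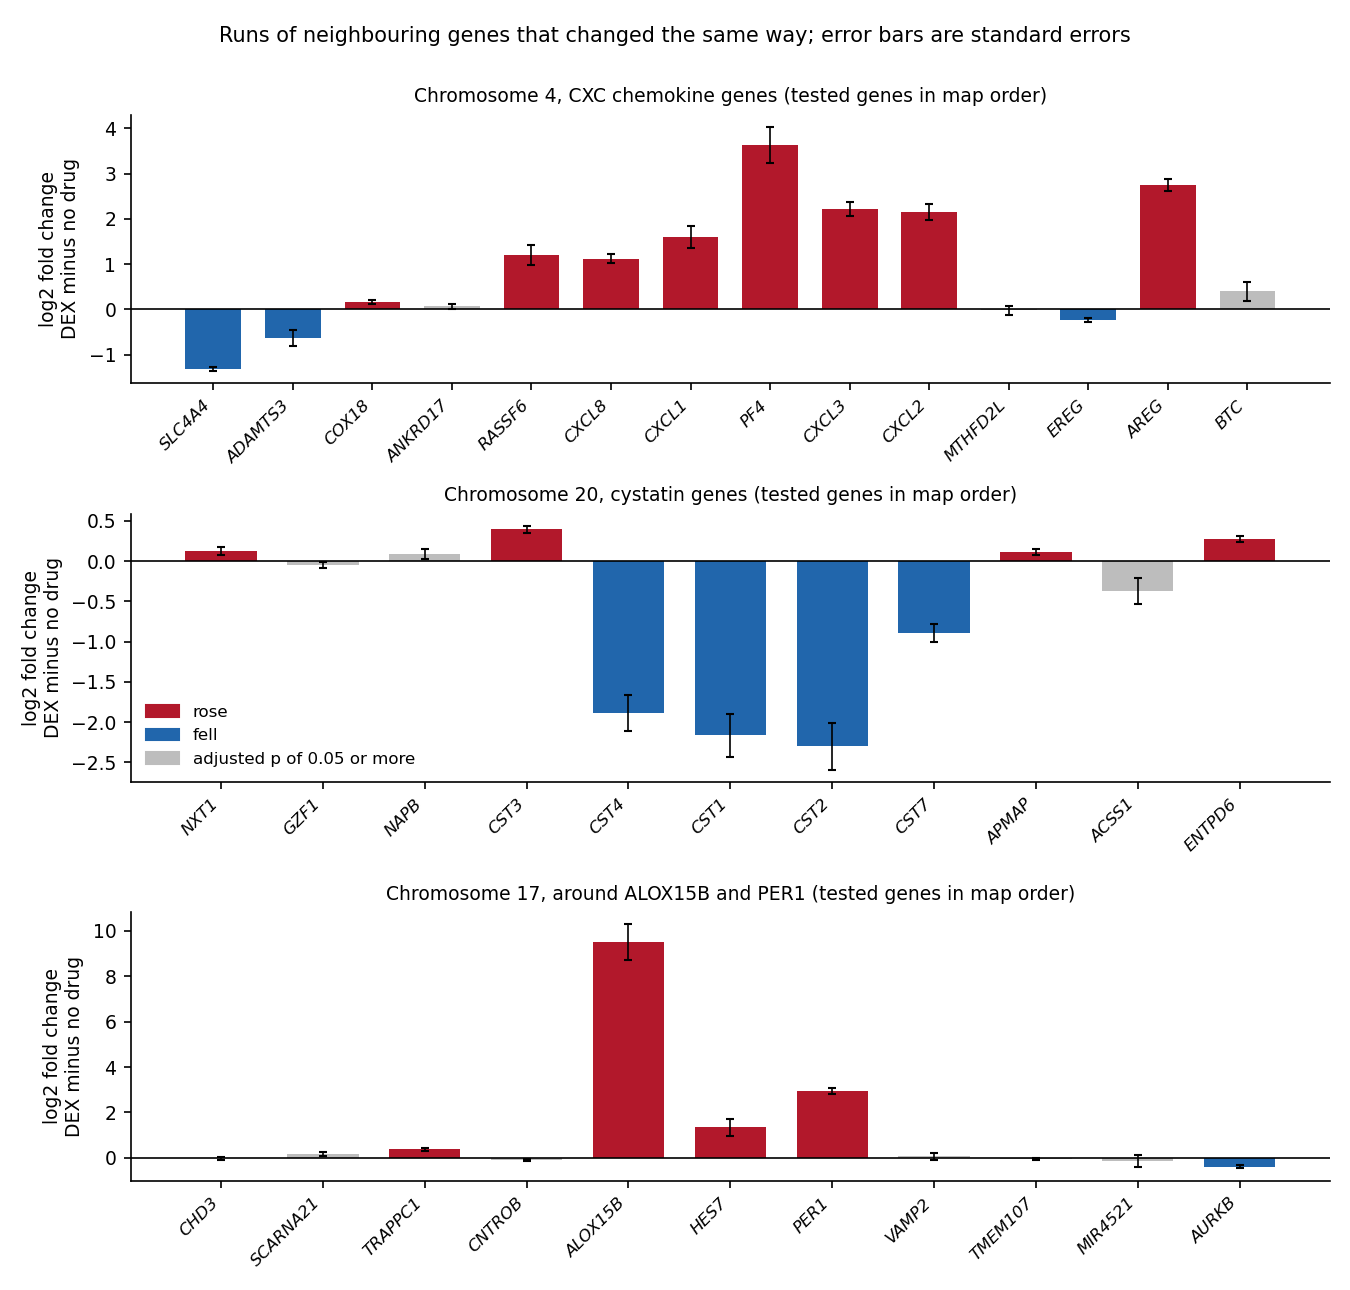
Log2 fold change of DEX against no drug for the tested genes at 3 chromosomal runs and their flanks, in map order (horizontal axis, not to distance), with standard errors as bars. Red bars rose, blue bars fell and grey bars did not pass. The 6 genes from RASSF6 to CXCL2 rise, the 3 genes from CST4 to CST2 fall, and most flanking genes change far less.

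BMP and activin pathway genes fell more often than they rose. Of 36 tested BMP, activin and inhibitor genes 18 fell (50.0%) and 7 rose (19.4%), against 23.2% and 21.9% of all tested genes. The median log2 fold change of the list was -0.21. FST, which encodes the activin trap follistatin, was at 129, 140.1 and 153 CPM without drug and 32.5, 33.2 and 29.6 CPM with DEX (-2.15 ± 0.10, adjusted p = 3.13e-10). Its relative FSTL3 rose from 69.4, 70.6 and 67.8 CPM to 219, 210.2 and 232 CPM (1.67 ± 0.040, adjusted p = 2.73e-13). The wells of the groups stood well apart for both, in opposite directions. INHA, the inhibin alpha subunit, rose from 0.120 ± 0.0479 to 1.09 ± 0.220 CPM. GDF15, a stress-induced cytokine of the same superfamily, fell from 70.02, 67.6 and 59.3 CPM to 11.8, 12.9 and 12.2 CPM (-2.41 ± 0.11, adjusted p = 1.96e-10). ID2, a transcriptional inhibitor induced by BMP signalling, fell from 70.5 ± 4.19 to 17.2 ± 0.396 CPM.

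The growth factor gene ARTN, which encodes a ligand of the GDNF family, fell from 5.60, 6.00 and 5.20 CPM to 0.658, 0.959 and 1.21 CPM (-2.57 ± 0.21, adjusted p = 9.81e-08). FGF5 fell from 37.5 ± 1.93 to 11.6 ± 0.619 CPM. KDR, the VEGF receptor 2 of endothelial cells, rose from 3.21 ± 0.647 to 9.51 ± 0.517 CPM, while the summed endothelial markers PECAM1, CDH5 and VWF were between 0.774 and 1.11 CPM without drug and between 0.299 and 0.691 CPM with DEX. Of the 35 tested FGF, VEGF and PDGF ligands and receptors, 15 fell (42.9%) and 9 rose (25.7%), against 23.2% and 21.9% of all tested genes. That list also holds ANGPTL4, 1 of the classical targets.

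Genes of cyclic AMP synthesis, breakdown and response fell more often than they rose. PDE7B, a phosphodiesterase specific for cyclic AMP, was at 57.4, 51.5 and 48.2 CPM without drug and 14.8, 15.6 and 14.9 CPM with DEX, a log2 fold change of -1.80 ± 0.074 (adjusted p = 8.24e-11). PDE4B fell from 7.73, 6.70 and 7.77 CPM to 2.13, 2.29 and 2.56 CPM (-1.67 ± 0.12) and PDE8B by 1.04 on the log2 scale. The DEX wells were all below the no-drug wells for the 3 phosphodiesterases. RAPGEF3, the cyclic AMP-activated exchange factor EPAC1, fell from 2.50 ± 0.485 to 1.25 ± 0.198 CPM, and the kinase A anchor AKAP12 rose from 40.97 ± 0.952 to 99.6 ± 3.77 CPM. In all 17 of 43 tested genes of the list fell (39.5%) and 7 rose (16.3%), against 23.2% and 21.9% of all tested genes.

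Actin fibre genes rose more often than they fell, and microtubule-associated genes fell more often than they rose. MAP2, a microtubule-associated protein of neuronal dendrites, was among the 3 of its list that rose, at 0.689, 0.232 and 0.492 CPM without drug and 28.2, 29.01 and 28.04 CPM with DEX (5.89 ± 0.31, adjusted p = 1.16e-09). Of 31 tested microtubule-associated proteins 18 fell (58.1%) and 3 rose (9.68%), with a median log2 fold change of -0.28. GAS2L3, a linker of actin and microtubules active in cytokinesis, fell from 71.2 ± 3.32 to 37.9 ± 1.20 CPM, and the doublecortin-like kinases DCLK1 and DCLK2 fell by 0.73 and 0.78 on the log2 scale. The contractile actin and myosin list had 16 of 37 members up (43.2%) and 9 down (24.3%), against 21.9% and 23.2% of all tested genes. PDLIM1, a LIM protein of stress fibres, was at 58.7, 60.3 and 51.4 CPM without drug and 139.8, 132 and 138 CPM with DEX (1.27 ± 0.066, adjusted p = 9.31e-10). Caldesmon (CALD1) rose by 0.68 ± 0.059 and the myosin light chain MYL9 by 0.53 ± 0.074, while filamin C (FLNC) and synaptopodin (SYNPO) fell by 0.69 and 1.23. Among focal adhesion plaque genes 14 of 34 rose (41.2%) and 6 fell (17.6%). FGD4, an exchange factor for the GTPase CDC42, rose from 6.92, 6.33 and 5.97 CPM to 38.6, 38.1 and 38.9 CPM (2.59 ± 0.079, adjusted p = 3.73e-12).

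Axon guidance genes changed in both directions, with 6 falls and 2 rises of at least 2-fold. RELN, a secreted guidance glycoprotein, fell from 12.1, 11.9 and 12.2 CPM to 2.09, 1.82 and 1.62 CPM (-2.71 ± 0.13, adjusted p = 5.56e-10), and the ephrin receptors EPHB3 and EPHA5 fell by 1.80 and 1.42 on the log2 scale. The semaphorin receptor gene PLXNA2 rose from 15.5, 14.4 and 12.6 CPM to 48.1, 45.1 and 40.7 CPM (1.65 ± 0.072), and EPHA3 from 0.518 ± 0.0503 to 3.01 ± 0.162 CPM. NRCAM, an adhesion molecule of axons, rose from 4.19, 3.65 and 4.15 CPM to 16.7, 16.4 and 15.5 CPM (2.02 ± 0.093, adjusted p = 2.73e-10). Groups did not overlap for these genes. Of 63 tested guidance genes 22 fell (34.9%) and 13 rose (20.6%), against 23.2% and 21.9% of all tested genes. NRCAM belongs to another list, of immunoglobulin-type adhesion molecules, in which 9 of 31 fell (29.0%) and 11 rose (35.5%). By 2-fold or more 3 of that list fell and 1 rose. CDH12, a brain cadherin, had 129 reads in the no-drug wells and 2 in the DEX wells, a ratio of 58.1 (95% interval 15.8 to 484.9). The gap junction gene GJA1 (connexin 43) rose from 49.2 ± 2.09 to 99.97 ± 4.81 CPM.

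The sugar coat and the matrix changed in specific enzymes. GCNT1, which builds the core 2 branch of mucin-type glycans, was at 57.7, 55.1 and 55.1 CPM without drug and 246, 251 and 237 CPM with DEX (2.13 ± 0.070, adjusted p = 8.92e-12). Its mucosal relative GCNT3 fell from 4.60, 4.04 and 3.73 CPM to 1.01, 0.891 and 1.32 CPM, and B3GALT5, a galactosyltransferase, from 3.63 ± 0.193 to 0.610 ± 0.207 CPM. The 2 branching enzymes thus moved apart, each without overlap between groups. Among mucins, the gel-forming MUC5AC fell from 4.23, 2.29 and 2.60 CPM to 0.310, 0.377 and 0.301 CPM (-3.19 ± 0.31) and the membrane-bound MUC1 rose from 0.292 ± 0.212 to 1.80 ± 0.150 CPM. The list of these transferases and mucins had 22 of 67 genes up (32.8%) and 23 down (34.3%), against 21.9% and 23.2% of all tested genes. HAS3, a hyaluronan synthase, and CEMIP, a protein needed for hyaluronan breakdown, fell by 1.72 and 1.34 on the log2 scale. Collagens went both ways, with 8 up and 8 down of 24 (33.3% each). They ran from COL8A1 (83.2 ± 0.323 to 274 ± 5.72 CPM) to the hemidesmosome collagen COL17A1 (5.37 ± 0.865 to 0.842 ± 0.126 CPM) and COL7A1 (-1.55 ± 0.11 on the log2 scale). The matrix proteases ADAMTS9 and ADAMTS1 also parted, at 1.42 ± 0.071 and -1.02 ± 0.053.

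RAB GTPases, which direct vesicles between membranes, fell more often than they rose, 20 of 52 (38.5%) against 7 (13.5%). Over all tested genes the shares were 23.2% and 21.9%. RAB27B, a factor in exosome and granule release, was at 284, 291 and 272 CPM without drug and 122, 128 and 124 CPM with DEX (-1.18 ± 0.041, adjusted p = 1.10e-11). RAB3B, also of regulated secretion, fell from 3.47, 4.94 and 4.08 CPM to 0.812, 1.13 and 1.32 CPM, and the epithelial RAB17 from 4.90 ± 0.912 to 1.57 ± 0.212 CPM. The groups stood apart in all 3. SYTL2, a synaptotagmin-like partner of RAB27 proteins, fell from 55.1 ± 0.541 to 27.9 ± 0.390 CPM, and RAB3D rose from 14.3 ± 1.69 to 29.1 ± 1.18 CPM.

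Genes of lipid storage, and a mixed list of gluconeogenesis, glycogen and pyruvate dehydrogenase kinase genes, rose more often than they fell. CIDEC, a lipid droplet protein of fat cells, went from 2 to 141 reads (ratio 78.3, 95% interval 21.3 to 652.6), and in the same wells the adipocyte markers ADIPOQ, PLIN1 and LEP summed to between 0.211 and 0.301 CPM without drug and between 0.238 and 0.307 CPM with DEX. The acyl-CoA synthetase gene ACSL1 was at 53.5, 53.3 and 53.8 CPM without drug and 152, 153 and 149 CPM with DEX (1.498 ± 0.11, adjusted p = 2.52e-08), and ACSL3 rose by 0.97 ± 0.064 on the log2 scale. Diacylglycerol acyltransferase 2 (DGAT2) fell by 0.82. Triglyceride and lipid droplet genes numbered 13 up (41.9%) and 6 down (19.4%) of 31, against 21.9% and 23.2% of all tested genes. The mixed list had 14 up (48.3%) and 7 down (24.1%) of 29. Both lists overlap with the classical targets, the triglyceride list in ANGPTL4 and the mixed list in PDK4 and GLUL. Glutamine synthetase (GLUL) rose from 128 ± 4.32 to 198 ± 2.09 CPM and fructose bisphosphatase (FBP1), a rate-limiting enzyme of gluconeogenesis, fell from 5.21 ± 0.770 to 3.06 ± 0.254 CPM. Nicotinamide methyltransferase (NNMT) rose from 110.1, 96.9 and 96.7 CPM to 730.4, 725 and 771 CPM.

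Of 16 tested cytochromes P450, 5 fell (31.25%, 4 by 2-fold or more) and 3 rose (18.75%), against 23.2% and 21.9% of all tested genes. CYP1A1, the best known target of the aryl hydrocarbon receptor, a sensor of dioxins and tryptophan products, was at 16.4, 18.2 and 15.6 CPM without drug and 3.10, 3.63 and 3.50 CPM with DEX (-2.29 ± 0.090, adjusted p = 5.05e-11). CYP1B1 fell from 102, 94.1 and 91.98 CPM to 32.2, 32.6 and 32.1 CPM (-1.57 ± 0.041, adjusted p = 6.55e-13) and ALDH3A1 from 2.50 ± 0.472 to 0.828 ± 0.155 CPM. No DEX well reached a no-drug well in these 3 genes. Of other genes of this pathway, chosen after their values were seen, the receptor gene AHR fell from 366, 369 and 363 CPM to 209.8, 208 and 209.9 CPM (-0.81 ± 0.028, adjusted p = 1.01e-11), its repressor AHRR by 0.85 and the target NQO1 by 0.59 on the log2 scale. TIPARP, a target shared with glucocorticoids, rose by 0.64 ± 0.033. The sterol hydroxylase CYP27A1 was one of the P450 genes that rose, from 5.40 ± 0.526 to 11.4 ± 0.531 CPM. The wider list of detoxifying aldehyde, carbonyl, glutathione, glucuronyl and sulfo enzymes had 21 of 56 genes up (37.5%) and 10 down (17.9%).

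Some housekeeping groups shifted by small amounts in many members, where 21.9% of all tested genes rose and 23.2% fell. Of 17 peroxisome assembly genes 11 rose (64.7%) and 1 fell, with a median log2 fold change of 0.24. PEX10, a ubiquitin ligase of the peroxisomal import machinery, rose from 13.1, 14.4 and 13.004 CPM to 18.7, 17.5 and 20.2 CPM (0.48 ± 0.065, adjusted p = 2.69e-05). Of 75 mitochondrial ribosome genes 34 rose (45.3%) and 3 fell (median 0.10), led by MRPL24 (0.32 ± 0.035) and MRPS33 (0.32 ± 0.060). Cytosolic ribosomal proteins followed with 32 of 78 up (41.0%) and 3 down (3.85%), with a median of 0.09. Only 13 rose when no-drug replicate 1 was left out and 14 when DEX replicate 3 was left out. The 3 that fell became 1 without no-drug replicate 3 or DEX replicate 1. RPS2 rose from 626 ± 24.9 to 763 ± 78.8 CPM. Many ribosomal protein genes have near-identical pseudogene copies, so their counts are uncertain.

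Chromosome segregation and nuclear genes moved the other way. Of 47 centromere and kinetochore genes 39 fell (83.0%) and 1 rose, against 23.2% and 21.9% of all tested genes. Their median log2 fold change was -0.30. BUB1, a kinase of the spindle checkpoint, was at 369.8, 386 and 400.0 CPM without drug and 233, 238 and 233 CPM with DEX (-0.71 ± 0.038, adjusted p = 1.29e-09), and NUF2 of the kinetochore fell from 96.7 ± 1.67 to 64.7 ± 3.12 CPM. Of 34 kinesins 19 fell (55.9%) and 5 rose (14.7%), and KIF14 fell from 245 ± 3.33 to 154 ± 4.05 CPM. Splicing proteins of the SR and hnRNP families fell in 17 of 37 cases (45.9%) and rose in 2 (11 fell without DEX replicate 3), with HNRNPA2B1 at -0.31 ± 0.046. Of 30 nuclear pore genes 13 fell (43.3%) and 1 rose, with NUP50 at -0.30 ± 0.034. No gene of the centromere, splicing or pore lists rose when DEX replicate 2 was left out.

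Transcription and chromatin regulators leaned downward. Among 91 tested homeobox, SOX and FOX-type factors 28 fell (30.8%) and 12 rose (13.2%), against 23.2% and 21.9% of all tested genes. The transcription factor gene TCF4 was at 10.02, 9.12 and 9.77 CPM without drug and 3.10, 2.81 and 2.79 CPM with DEX (-1.73 ± 0.095, adjusted p = 1.49e-09), and SOX9 fell from 9.76 ± 0.831 to 3.88 ± 0.572 CPM. SNAI2, a driver of mesenchymal traits, rose from 14.01 ± 0.654 to 34.2 ± 0.677 CPM. Its relative SNAI1 fell, but did not pass without no-drug replicate 1 or 3 or without DEX replicate 2 or 3. In those fits its log2 fold change lay between -1.55 and -1.24. Of 117 histone and DNA modifying enzymes 33 fell (28.2%) and 13 rose (11.1%). The deacetylase gene HDAC9 fell from 26.9, 29.8 and 30.8 CPM to 12.03, 12.02 and 13.8 CPM (-1.21 ± 0.086, adjusted p = 2.52e-08) and the DNA methyltransferase gene DNMT3B from 24.5 ± 0.942 to 12.7 ± 1.29 CPM. Both lay outside the range of the no-drug wells. Of 456 ZNF-named zinc finger genes 102 fell (22.4%, close to the 23.2% of all genes) and 40 rose (8.77%).

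The change was also read by mass, as the difference in mean CPM. Genes that rose gained 70749 CPM in sum and genes that fell lost 55199 CPM. TMM factors were 1.0008 to 1.013 without drug and 0.992 to 0.993 with DEX. Scaling by them alone gives the DEX libraries a higher CPM total, so the excess of gains over losses is no result. THBS1, which encodes the matrix glycoprotein thrombospondin-1, had the largest gain, from 4278, 4196 and 4474 CPM to 9994, 9618 and 10032 CPM. ACTB, keratin 7 (KRT7) and the Wnt inhibitor DKK1 were also among the 10 largest gains, KRT7 from 390.4 ± 10.8 to 1241 ± 40.8 CPM and DKK1 from 612 ± 49.1 to 1442 ± 11.2 CPM. The largest losses included the ferritin light chain FTL (1912 ± 117 to 1318 ± 154 CPM), pyruvate kinase PKM (2349 ± 71.8 to 1797 ± 35.9 CPM), vimentin (VIM, 1325 ± 40.4 to 853 ± 42.1 CPM) and DST, a linker of filaments (1160.3 ± 22.9 to 743 ± 18.5 CPM). All these levels are scaled read counts, and long transcripts weigh more in them.

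The wells with SH4-54 offered the same contrast, DEX with SH4-54 against SH4-54, in 6 other libraries. They give no part of the fold changes above, but they entered the same model and so bear on its calls. In those wells 40.4% of all tested genes passed. Of the 6397 genes that DEX changed without SH4-54, 5883 (92.0%) had the same sign there and 4060 (63.5%) had the same sign and passed. For rises of at least 2-fold these numbers were 293 and 256 of 298, and for falls of at least 2-fold 362 and 269 of 385. Among the 7787 genes not called without SH4-54, 63.1% had the same sign in both contrasts. In 16.3% of them the sign was the same and the gene passed with SH4-54. CALCR (3.15 with SH4-54 against 3.49 without on the log2 scale), NPR3 (3.05 against 3.58), PDE7B (-1.74 against -1.80) and RAB27B (-1.26 against -1.18) were among the genes with the same sign in both sets. The test of the difference between both contrasts passed for 553 of all tested genes (3.90%), 473 of them among the 6397 and 80 among the other genes. The 6397 were chosen by their call without SH4-54, so no direction of the difference is read from them. The count of 553 moved by over 1.5 times when any single library except SH4-54 replicate 1 was left out, down to 204 without DEX replicate 2 and up to 2046 without replicate 3 of the combination. Among the genes described here, SPHK1 (0.02 against -1.04, adjusted p of the difference = 0.00365) and ID2 (-0.61 against -2.04, adjusted p of the difference = 7.17e-04) passed this test.

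**Figure D5:**
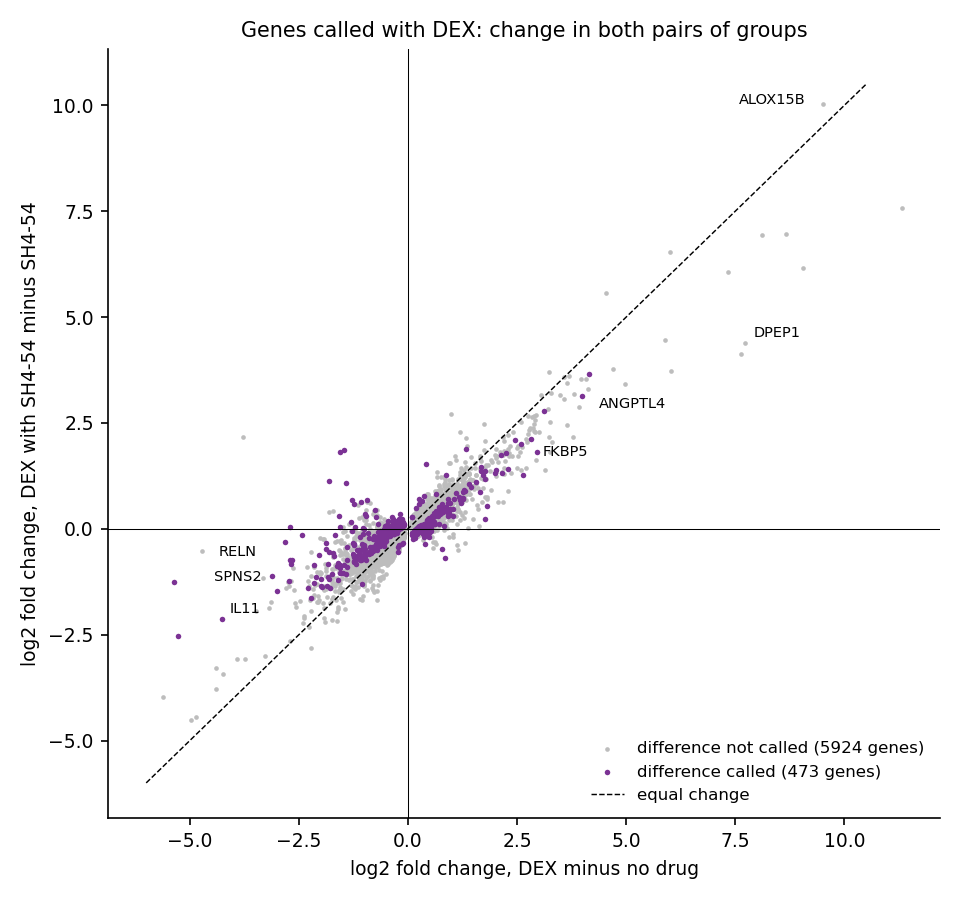
Log2 fold change with DEX in the wells with SH4-54 (vertical axis) against that in the wells without it (horizontal axis) for the 6397 genes called without SH4-54, with 473 genes whose difference passed the test in purple and a dashed line of equal change. Most points lie at the lower left and upper right. The genes plotted were chosen by their call without SH4-54, so the side of the line on which the purple points lie is no result.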

How the data were processed

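RNA-seq libraries of MDA-MB-231 wells were ribosomal RNA-depleted, stranded and read as 50-base single ends, per the labels' protocols. The authors deposited whole-number read counts per gene symbol, for which the submitters' processing notes name the builds hg19 and GRCh37 and the tools HISAT2 2.1.0, SAMtools and featureCounts 1.5.1. Neither the annotation nor the strand setting nor the treatment of reads with several positions is stated there, so genes that overlap or have near-identical copies are uncertain. Of 26364 symbols 25261 matched a current or older RefSeq symbol, and 13907 of the 14184 tested genes could be placed in gene order.

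Tests were run with edgeR 4.0.16 and limma 3.58.1 under R 4.3.3. Rows were filtered with filterByExpr, libraries scaled by TMM, and 1 quasi-likelihood model of 4 groups was fitted to the 12 libraries with 8 residual degrees of freedom. Adjusted p-values are Benjamini-Hochberg over all tested genes. Each standard error is the size of the log2 fold change divided by the root of its F statistic. CPM values use TMM-scaled library sizes, except for the summed cell markers and the ranges of FN1, and log2 CPM a prior count of 2. Gene lists are described by counts and medians, with no set test. On simulated counts of 14184 genes, 50 each were changed 1.25-, 1.5-, 2- and 4-fold in the DEX group. The test found 28, 36, 43 and 47 of them, with 4.35% of calls on unchanged genes. In the data 45.1% of genes passed, a far larger share than was changed there, so these rates need not hold for the DEX contrast.

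The comparison and the 68 gene lists were chosen with earlier results of these data known. Named genes are NR3C1, FKBP5 and TSC22D3 and genes with adjusted p below 0.05 and no overlap in log2 CPM that are among the 20 largest rises or falls (5 CPM or more on average in a group), the 10 largest gains or losses in mean CPM, the 5 largest changes of a list (at least 1 CPM) or a run of neighbours. A few genes picked by this rule are left out of the text and not reported here. Others are marked as chosen after their values were seen. Alternatives were DESeq2 1.42.0 size factors and its Wald test, total counts without TMM, no filter, a stricter filter, the replicate number as a block, only the 6 libraries compared, the table without its 10 most abundant genes, and each library left out in turn.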

Additional observations from a re-analysis of the deposited data

Results flagged for a closer look

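Among the 10 largest rises, the 10 largest falls and the 3 always-named genes, those reported here include 8 whose DEX effect differed between wells with and without SH4-54 by edgeR's test of the difference (adjusted over all tested genes). Values below are that difference on the log2 scale, the effect with SH4-54 minus the effect without it. Of the risen genes, the chaperone gene FKBP5 differed by -0.594 (adjusted p = 0.0397) and the lipase inhibitor gene ANGPTL4 by -0.852 (adjusted p = 0.00185). Of the fallen genes, the cytokine gene IL11 differed by 2.14 (adjusted p = 5.75e-04), the annexin gene ANXA10 by 2.02 (adjusted p = 4.84e-04) and the long noncoding RNA LINC00704 by 1.52 (adjusted p = 0.00513). The lipid exporter gene SPNS2 differed by 1.5 (adjusted p = 3.18e-04), RELN by 1.98 (adjusted p = 1.90e-04) and COL17A1 by 1.94 (adjusted p = 0.00451). The genes were taken for the size of their change without SH4-54, so the direction of these differences is partly set by the choice. The IL11 fall, for example, was -4.27 without SH4-54 and -2.12 with it. What sets these genes apart was not tested.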

How the results depend on the processing

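Leaving out each library in turn gave between 2666 and 3454 risen and between 2860 and 3387 fallen genes, with 298 to 321 and 374 to 411 at least 2-fold. The other settings gave between 2735 and 3520 risen and between 2816 and 3699 fallen genes, with 237 to 354 and 266 to 465 at least 2-fold. Risen genes made up 48.5% of the calls, and 42.5% with total counts in place of TMM. The median log2 fold change of all genes lay between -0.033 and 0.00026 over the settings. Of the calls, 2239 rises and 2403 falls held in all 12 fits with a library left out. The count of genes whose DEX effect differed with SH4-54, 553, ranged from 204 to 2046 when a library was left out and was 848 with no count filter, and the cause was not tested. Of 379 named genes, 352 kept their call under every alternative run, 27 lost it under at least 1, and 0 changed direction.

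With the replicate number as a block 2986 genes rose and 3176 fell. Deviations of same-numbered wells from their group means correlated at -0.377, -0.196 and -0.00407, so the numbers were not taken as pairs. Wells of a group always differed by more than sampling noise (lowest chi-square 4.26 per degree of freedom). Genes under 1 CPM limit the depth of the description: their median standard error was 0.336 on the log2 scale, against 0.036 above a log2 CPM of 8.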

Other observations

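Noncoding genes shared in the change at a lower rate. Of 687 tested long noncoding RNAs 80 rose and 87 fell (11.6% and 12.7%), against 23.3% and 24.7% of 12728 protein-coding genes. The median of the higher group mean was 1.24 CPM for the former and 32.3 CPM for the latter, and calls depended on level. KCCAT211 rose from 1.38 ± 0.173 to 24.2 ± 0.436 CPM, and the microRNA host gene MIR137HG fell from 2.57 ± 0.188 to 1.03 ± 0.0877 CPM. Of 133 small nucleolar RNAs 4 rose and 2 fell.

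Genes of insulin signalling and of protein breakdown in muscle included single large changes. IRS2, an adaptor of the insulin receptor, was at 13.6, 13.6 and 13.4 CPM without drug and 45.03, 33.8 and 38.2 CPM with DEX (1.53 ± 0.10, edgeR adjusted p = 1.68e-08), and DEPTOR, an inhibitor of mTOR, rose from 0.903 ± 0.253 to 2.10 ± 0.458 CPM. SESN3, another brake on mTOR, fell from 1.28 ± 0.0462 to 0.381 ± 0.0433 CPM. Of the 37 tested genes of the insulin signalling list 4 rose (10.8%) and 11 fell (29.7%), against 21.9% and 23.2% of all tested genes. Its risen genes numbered 7 when only the DEX and no-drug libraries were fitted. SGK1, FOXO3 and DDIT4 of that list are also classical targets. FBXO32, the ubiquitin ligase atrogin-1 known from glucocorticoid-driven muscle loss, rose from 17.2, 16.5 and 15.3 CPM to 43.4, 45.01 and 43.2 CPM (1.42 ± 0.12, edgeR adjusted p = 1.46e-07). The selective autophagy receptor gene SQSTM1 fell from 489 ± 4.11 to 264 ± 8.63 CPM, and of 44 autophagy genes 11 rose (25.0%, near the 21.9% of all tested genes) and 7 fell (4 fell without no-drug replicate 3).

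Complement and coagulation genes rose in 11 of 22 cases (50.0%) and fell in 5 (22.7%), against 21.9% and 23.2% of all tested genes. C3, the central complement protein, rose from 3.60, 2.25 and 2.28 CPM to 10.2, 8.08 and 9.76 CPM, and the anticoagulant cofactor PROS1 from 42.8 ± 2.91 to 98.05 ± 3.01 CPM. Clusterin (CLU), an inhibitor of complement lysis, fell from 43.6 ± 1.67 to 21.6 ± 0.897 CPM. Among 22 tetraspanins, membrane organisers found on exosomes, 8 rose (36.4%) and 5 fell (22.7%). CD9 rose from 114, 116 and 116 CPM to 225, 216 and 226 CPM, while CD82, a known suppressor of metastasis, fell from 69.9, 68.9 and 71.5 CPM to 31.2, 27.9 and 32.3 CPM and TSPAN8 from 7.23 ± 0.548 to 1.96 ± 0.293 CPM. The SOCS box gene SOCS2, a brake on cytokine receptors, fell from 93.4 ± 3.44 to 35.7 ± 0.914 CPM, and ASB2 of the related ankyrin family from 6.01, 4.67 and 4.04 CPM to 0.116, 0.0685 and 0.188 CPM.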
